A study of Rattus norvegicus with 30 samples.

Results

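Lymphatic endothelial cells line the vessels that drain fluid and immune cells from the lung. Here 5 genes widely used to mark them were followed in rat lung cells sorted for CD31, a surface protein of blood and lymphatic endothelium. They are Prox1 (ENSRNOG00000003694), Lyve1 (ENSRNOG00000063592), Pdpn (ENSRNOG00000014961), Mmrn1 (ENSRNOG00000024986) and Reln (ENSRNOG00000021441), taken by gene name as a list of known markers. All 5 were among the 30562 rows of the deposited table and among the 16171 genes abundant enough to test. The rats, labelled wild-type throughout, underwent sham or Glenn surgery and were on a control, a vitamin A-deficient or a vitamin A-excess diet, and cells were sorted with microbeads 3 weeks after surgery. In the Glenn operation the superior vena cava is joined to a pulmonary artery, so that the lung it feeds no longer gets blood coming directly from the liver. The 30 libraries form 6 groups of 5, which by their labels differ in operation and diet alone. Age, sex and strain, and whether each library is a separate animal, are not given in the sources used here, so p-values measure the spread between these libraries, which may in part be technical.

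Lymphatic vessels arise when venous endothelial cells switch on PROX1, a transcription factor that sets and keeps lymphatic identity under the influence of SOX18 and NR2F2. Their growth is driven by VEGF-C and VEGF-D acting on the receptor VEGFR3, the product of Flt4. Of the other marker genes, Lyve1 encodes a hyaluronan receptor that lets immune cells enter initial lymphatics, and Pdpn a mucin-like surface protein that binds the platelet receptor CLEC-2. Mmrn1 encodes multimerin 1, a secreted protein of the EMILIN family that platelets also store, and Reln encodes reelin, a secreted glycoprotein that acts on VLDLR and ApoER2. None of these genes belongs to lymphatic cells alone: lung capillary endothelium and some macrophages make Lyve1, type 1 alveolar cells make much Pdpn, and heart muscle and neuroendocrine cells make Prox1.

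RefSeq's promoter table for the rat build GRCr8 had entries for 4 of the 5 genes, Lyve1, Pdpn, Mmrn1 and Reln. Upstream stretches of Lyve1, Mmrn1 and Reln are shown because the level of Reln followed that of Mmrn1 from library to library and that of Lyve1 did not, as described further on. Each reads 5′ to 3′ toward the gene, and capitals mark a motif of those searched. For Lyve1 it is chr1:174410978-174411227 on the minus strand, for Mmrn1 the last 30 bases before the start, which lies inside RefSeq's gene span, at chr4:91233386-91233415 on the plus strand, and for Reln the 122 bases outside the annotated gene at chr4:13628318-13628439 on the plus strand.
Lyve1: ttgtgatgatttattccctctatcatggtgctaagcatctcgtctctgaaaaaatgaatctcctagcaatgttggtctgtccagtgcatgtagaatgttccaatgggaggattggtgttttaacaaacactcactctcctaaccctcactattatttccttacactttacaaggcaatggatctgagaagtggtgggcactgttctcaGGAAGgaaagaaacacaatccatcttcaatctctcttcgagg
Mmrn1: ttaaaacattcagtacGGAAGtggctacca
Reln: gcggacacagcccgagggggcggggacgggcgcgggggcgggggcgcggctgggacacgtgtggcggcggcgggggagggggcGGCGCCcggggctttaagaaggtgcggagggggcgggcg

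The 5 short motifs below were searched on both strands in the 250 bases before each start, and none of the matches overlapped another. The ETS core GGAAG occurred once before Lyve1 and 2 times before Mmrn1, and 63.3% of all 33469 promoters in the table held it. The BMP-SMAD motif GGCGCC occurred 2 times before Reln, 1 of them in the stretch shown, and 8.69% of all promoters held it. Pdpn had 1 copy of the nuclear receptor motif AGGTCA, found in 14.1% of promoters. The SOX motif AACAAT and the GATA motif AGATAA, each in 10.3% of promoters, were in none of the 4 windows. Base composition differed between the windows: G and C made up 80.0% of the Reln window, more than in 98.9% of promoters, and 41.6% of the Lyve1 window, where 17.3% of promoters were lower. Mmrn1 (45.6%) and Pdpn (51.6%) were closer to the median promoter, at 51.2%. Mmrn1 and Reln shared none of the 5 motifs in these windows. Of the 250 bases searched, 250 lay outside RefSeq's gene span for Lyve1, 122 for Reln, 97 for Pdpn and 0 for Mmrn1. Whether these motifs bear on the levels of the genes was not tested.

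Library totals were 22 to 77.6 M estimated counts (M, mega), with a median of 40 M, so that 1 read was worth 0.0129 to 0.0434 CPM (counts per M, after TMM scaling). The 6 endothelial genes Pecam1, Cdh5, Tek, Tie1, Esam and Erg summed to 6122 to 7824 CPM with sham and 4605 to 6872 CPM with Glenn surgery, so endothelial transcripts were present in every library. Transcripts of type 2 alveolar epithelium were present too, with 6 markers summing to 34800 to 59903 CPM with sham and 24750 to 56229 CPM with Glenn surgery. Library names fall in 2 number ranges, called here series A (22 libraries) and series B (8 libraries), and series B occurs in 3 groups only, namely sham deficient (3 libraries), Glenn deficient (2) and Glenn excess (3). The series is a term in the edgeR fit whose values are given here, and fits without it were run as alternatives. Libraries also split by the histocompatibility gene RT1-CE16, with 13 above 100 CPM (high) and 17 below (low), and subsets by series or by RT1-CE16 were fitted apart. The sham excess group held no high library, so the operations could not be compared among high libraries on that diet. The counts are not per length, so CPM of different genes do not rank their transcript numbers. Sums and ratios of genes are compared between libraries.

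All 5 lymphatic genes were higher after Glenn than after sham surgery when the 3 diets were averaged. Prox1, Mmrn1 and Pdpn stood at 2.17-fold, 2.05-fold and 1.95-fold their sham level in the fit, Reln at 1.65-fold and Lyve1 at 1.28-fold. A gene is called changed at an adjusted p under 0.05 in edgeR's quasi-likelihood test, with Benjamini-Hochberg adjustment over the 16171 genes. By that rule 5 of 5 rose, against 23.4% of all genes tested that rose and 48.2% that changed either way. The median log2 change of the 5 was 0.97 and that of all genes -0.01. In a bulk sample, more lymphatic cells and more of a transcript per cell cannot be told apart.

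Prox1, the transcription factor, was detected in every library, with at least 78 counts. On the control diet Prox1 stood at 3.56, 6.41, 3.63, 4.44 and 7.18 CPM in the 5 sham libraries and at 13.3, 12.1, 9.09, 10.5 and 12.3 CPM in the 5 Glenn libraries. On the deficient diet the sham libraries held 6.15, 6.15, 2.45, 4.14 and 7.45 CPM of Prox1, and the Glenn libraries 12.5, 13.9, 6.86, 8.99 and 14.1 CPM. On the excess diet the values were 6.01, 6.18, 5.88, 5.19 and 3.57 CPM with sham and 9.20, 13.6, 11.2, 13 and 7.35 CPM with Glenn surgery. Every Glenn library lay above every sham library on the control and excess diets, while on the deficient diet 1 Glenn library, replicate 3, fell below the highest sham library. The order of the group means was sham control, sham deficient and sham excess, from 5.05 ± 1.66 to 5.37 ± 1.07 CPM, then Glenn excess, Glenn deficient and Glenn control, from 10.9 ± 2.60 to 11.5 ± 1.66 CPM (SD, n = 5 each). Neighbours within each operation differed by less than their SD, and the only step larger than the SD was the one between operations. Prox1 rose by 1.12 on the log2 scale averaged over diets (SE 0.15, edgeR adjusted p 3.29e-07). It rose on each diet, by 1.18 on control (SE 0.25, edgeR adjusted p 0.000709), 1.07 on deficient (SE 0.25, edgeR adjusted p 0.00189) and 1.10 on excess (SE 0.28, edgeR adjusted p 0.00416). With fewer libraries, the deficient-diet call was lost in series A alone (0.85, edgeR adjusted p 0.0735) and in series B alone (1.29, p 0.075), and the control-diet call among RT1-CE16-high libraries (1.18, p 0.0712). Other cells that make Prox1 were checked by their markers. Of 5 neuroendocrine genes 3 could be tested (edgeR adjusted p 0.6 to 0.96), their sum was 0.227 to 1.66 CPM with sham and 0 to 1.56 CPM with Glenn surgery, and Grp had 0 counts in all 30 libraries. Of 6 cardiac muscle genes 5 were tested and 3 rose (Tnnt2 by 1.38, Actc1 by 1.83 and Myh6 by 1.57 on the log2 scale), beside 23.4% of all genes. Myl7 (0.38, edgeR adjusted p 0.422) and Ryr2 (0.86, p 0.23) were not called. The 6 cardiac genes summed to 1.28 to 6.61 CPM with sham and 4.45 to 24.5 CPM with Glenn surgery, and Nppa had a median of 0 CPM. Actc1 averaged 1.87 CPM with sham and 6.71 CPM with Glenn surgery, and Myh6 0.12 and 0.33 CPM. Whether heart muscle RNA took part in the Prox1 change was not tested.

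**Figure D1:**
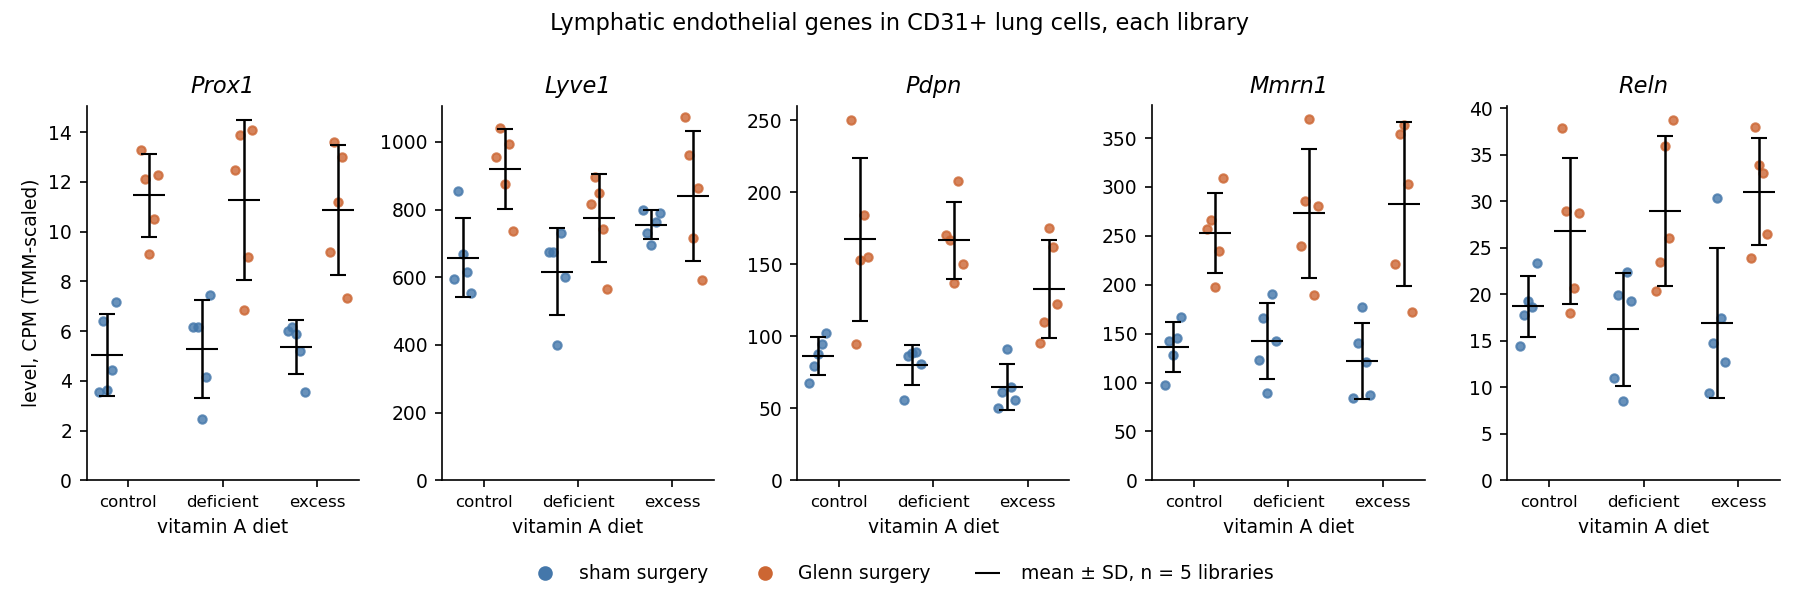
Level of each lymphatic gene (TMM-scaled CPM, linear axis from 0) in every library by diet, blue for sham and orange for Glenn surgery, with the mean ± SD of 5 libraries. The operations are apart for Prox1, Mmrn1 and Pdpn in most libraries, and overlap widely for Lyve1 and Reln.

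Mmrn1, the secreted multimerin, also rose on every diet. On the control diet Mmrn1 stood at 97.7, 142, 128, 146 and 167 CPM with sham and at 257, 266, 198, 235 and 309 CPM with Glenn surgery. Deficient-diet libraries held 123, 166, 89.3, 191 and 142 CPM of Mmrn1 with sham and 240, 286, 369, 190 and 281 CPM with Glenn surgery. Excess-diet libraries held 83.7, 140, 177, 121 and 87.5 CPM with sham and 221, 354, 363, 303 and 172 CPM with Glenn surgery. The operations were fully apart on the control diet, while on each of the other diets 1 Glenn library lay just below the highest sham library (deficient replicate 4 and excess replicate 5). Group means ran from 122 ± 38.7 CPM (sham excess) through 136 ± 25.8 (sham control) and 142 ± 39.1 (sham deficient) to 253 ± 40.7 (Glenn control), 273 ± 66.0 (Glenn deficient) and 283 ± 83.6 CPM (Glenn excess; SD, n = 5 each). As for Prox1, only the step between operations was larger than the SDs. Mmrn1 rose by 1.03 averaged over diets on the log2 scale (SE 0.13, edgeR adjusted p 3.81e-07), and by 0.89, 0.91 and 1.30 on the control, deficient and excess diets (edgeR adjusted p 0.00458, 0.00451 and 0.000422). The control-diet call was lost among RT1-CE16-low (1.01, edgeR adjusted p 0.0704) and among RT1-CE16-high libraries (0.90, p 0.113), and the deficient-diet call in series B alone (0.74, p 0.275). Platelets and megakaryocytes also hold multimerin. Averaged over diets, 5 of 6 of their marker genes fell and 0 rose (24.7% of all genes fell). The 6 genes summed to 27.2 to 101 CPM with sham and 24.6 to 93.7 CPM with Glenn surgery. The platelet factor gene Pf4 fell by 0.75 and the fibrinogen receptor subunit gene Itga2b by 0.84 on the log2 scale (edgeR adjusted p 0.0106 and 0.00101). By diet 0 of 6 fell on control (13.1% of all genes), 1 on deficient (13.7%) and 3 on excess (10.4%). The part of platelets in the Mmrn1 change was not tested.

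Reln, the secreted reelin, rose on average, with wide spread between libraries. On the control diet Reln stood at 14.4, 17.8, 19.3, 18.6 and 23.4 CPM with sham and at 37.9, 29.0, 18.0, 20.7 and 28.7 CPM with Glenn surgery. In the deficient-diet groups Reln was at 11.0, 19.9, 8.54, 22.4 and 19.3 CPM with sham and 20.4, 23.5, 36.0, 26.1 and 38.8 CPM with Glenn surgery. In the excess-diet groups it was at 9.42, 14.8, 30.4, 17.5 and 12.7 CPM with sham and 23.9, 38.0, 33.9, 33.0 and 26.5 CPM with Glenn surgery. The operations overlapped on every diet: 2 control Glenn libraries lay within the sham range, and sham excess replicate 3 was the highest sham library of its diet. The order of the means was sham deficient, sham excess and sham control (16.2 ± 6.10 to 18.7 ± 3.26 CPM), then Glenn control, Glenn deficient and Glenn excess (26.9 ± 7.85 to 31.1 ± 5.71 CPM; SD, n = 5 each), and no neighbours within an operation differed beyond their SD. Averaged over diets Reln rose by 0.72 on the log2 scale (SE 0.16, edgeR adjusted p 0.000566). Within diets the edgeR fit called Reln on the deficient one alone (0.85, SE 0.28, edgeR adjusted p 0.0237). Its change was 0.52 on the control diet and 0.79 on the excess diet (edgeR adjusted p 0.178 and 0.0626), and the test of a difference between diets, given further on, did not call one. The deficient-diet call was lost without any 1 of 4 libraries: sham deficient replicate 1 (0.73, edgeR adjusted p 0.0837), sham deficient replicate 3 (0.70, p 0.0631), Glenn deficient replicate 3 (0.75, p 0.0648) or Glenn deficient replicate 5 (0.72, p 0.0902). It was also lost in series A alone (0.79, edgeR adjusted p 0.223), in series B alone (0.94, p 0.127), among RT1-CE16-low (0.79, p 0.294) and RT1-CE16-high libraries (0.94, p 0.0752), and with only the deficient-diet groups in the fit (0.87, p 0.0524). The excess-diet change passed the threshold without sham excess replicate 3 (1.11, edgeR adjusted p 0.00606), and limma voom called it too.

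Pdpn, the surface mucin, rose on all diets. On the control diet Pdpn stood at 67.6, 79.4, 87.7, 94.3 and 102 CPM with sham and at 250, 94.6, 153, 184 and 155 CPM with Glenn surgery. For the deficient diet the values were 55.6, 86.0, 88.4, 89.2 and 81.0 CPM with sham and 170, 167, 137, 208 and 150 CPM with Glenn surgery. For the excess diet Pdpn was at 49.9, 61.1, 91.0, 65.1 and 55.8 CPM with sham and 95.2, 110, 175, 162 and 122 CPM with Glenn surgery. The operations were apart on the deficient and excess diets, and on the control diet 1 Glenn library (replicate 2) lay within the sham range while another (replicate 1) was the highest of all. The means rose from sham excess (64.6 ± 15.8 CPM) through sham deficient (80.1 ± 14.0) and sham control (86.2 ± 13.3) to Glenn excess (133 ± 34.2), Glenn deficient (167 ± 26.7) and Glenn control (167 ± 56.5 CPM; SD, n = 5 each). Sham deficient and sham control, and Glenn deficient and Glenn control, were neighbours closer than their SD. Pdpn rose by 0.97 on the log2 scale averaged over diets (SE 0.11, edgeR adjusted p 5.44e-08), by 0.96 on control (edgeR adjusted p 0.000398), 1.13 on deficient (p 6.53e-05) and 0.81 on excess (p 0.00685). In series A alone the excess-diet call was lost (0.68, edgeR adjusted p 0.102). Averaged over diets, of 10 genes of type 1 alveolar cells, another source of Pdpn, 7 rose, 1 fell (Hopx) and 2 did not pass the test. Among those that rose were the receptor gene Ager, the water channel gene Aqp5 and the sodium channel gene Scnn1g. Of all genes tested, 23.4% rose. By diet 5 of 10 rose on control (11.8% of all genes), 7 on deficient (13.7%) and 2 on excess (11.6%), where 1 fell. Beside the averaged 0.97 of Pdpn, the 7 called in the average rose by 0.43 (Cldn18) to 1.07 (Rtkn2) on the log2 scale. Ager rose by 0.82, Akap5 by 0.91 and Scnn1g by 1.06. Hopx changed by -0.36, Lmo7 by 0.15 and Igfbp2 by 0.02, and the median of all 10 was 0.74. The sum of all 10 was 1011 to 1562 CPM with sham and 1157 to 2802 CPM with Glenn surgery. Mesothelial cells make Pdpn too: the log2 changes of their 5 markers lay between -0.36 and -0.03 (edgeR adjusted p 0.0932 to 0.897), and their sum was 256 to 617 CPM with sham and 177 to 725 CPM with Glenn surgery.

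Lyve1, the hyaluronan receptor, had the smallest fitted change of the 5 genes. On the control diet Lyve1 stood at 594, 856, 670, 617 and 555 CPM with sham and at 955, 1041, 875, 993 and 736 CPM with Glenn surgery. Its deficient-diet values were 676, 675, 401, 730 and 600 CPM with sham and 818, 896, 850, 742 and 564 CPM with Glenn surgery. Its excess-diet values were 799, 731, 696, 763 and 789 CPM with sham and 1074, 960, 715, 865 and 592 CPM with Glenn surgery. The operations overlapped on every diet, most on the excess diet, where 2 Glenn libraries lay among or below the sham libraries. The means ran from sham deficient (617 ± 129 CPM) and sham control (658 ± 118) through sham excess (756 ± 42.3), Glenn deficient (774 ± 130) and Glenn excess (841 ± 192) to Glenn control (920 ± 120 CPM; SD, n = 5 each). Here the highest sham group and the lowest Glenn group were neighbours that differed by less than their SD. Lyve1 rose by 0.36 on the log2 scale averaged over diets (SE 0.08, edgeR adjusted p 0.000247) and by 0.48 on the control diet (SE 0.13, edgeR adjusted p 0.00642). Its change was 0.24 with the deficient diet and 0.36 with the excess diet (edgeR adjusted p 0.182 and 0.0765). Both passed the threshold without sham deficient replicate 4 (0.36, edgeR adjusted p 0.039, and 0.40, p 0.031), and the excess-diet change also without Glenn excess replicate 5 (0.41, p 0.0392), with DESeq2 (0.37, p 0.0493) and with limma voom (0.39, p 0.0357). The control-diet call was lost among RT1-CE16-low (0.41, edgeR adjusted p 0.0585) and RT1-CE16-high libraries (0.50, p 0.178). Lyve1 counts were exactly whole, with no tolerance, in 0 of 30 libraries of the deposited table, so part of its reads fit another annotated transcript too and its values are less certain than those of Prox1, Mmrn1 and Reln, which were whole in all 30. Some macrophages carry LYVE1: of 9 macrophage genes 2 rose (Csf1r and Mrc1, the latter also made by lymphatic endothelium), 2 fell (Cd68 and F13a1) and 5 did not pass the test, and their sum was 25.8 to 74.2 CPM with sham and 33.0 to 75.8 CPM with Glenn surgery. These counts are averaged over diets, where 23.4% of all genes rose and 24.7% fell. The part of macrophages in the Lyve1 change was not tested.

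By diet, 4 of 5 lymphatic genes rose on the control diet (11.8% of all genes rose, 24.9% changed), 4 of 5 on the deficient diet (13.7% and 27.4%) and 3 of 5 on the excess diet (11.6% and 21.9%). Every Glenn library lay above every sham library for Prox1 and Mmrn1 on the control diet (7.78% of all genes), for Pdpn on the deficient diet (10%) and for Prox1 and Pdpn on the excess diet (8.59%). Over all 15 against 15 libraries 0 of the 5 genes were fully apart, as were 3.10% of all genes. On the deficient diet 2 of 5 genes were called in series A alone and 1 of 5 in series B alone, and on the control diet 2 of 5 among RT1-CE16-low libraries and 1 of 5 among RT1-CE16-high ones. Over all genes, the deficient-diet calls were 2553 of 16751 in series A alone and 1969 of 15996 in series B alone. The control-diet calls were 1563 of 16525 among RT1-CE16-low and 2497 of 16406 among RT1-CE16-high libraries. Averaged over diets, 5 of 5 rose in series A alone (1.05 for Prox1, 1.07 for Mmrn1, 0.74 for Reln, 0.94 for Pdpn and 0.43 for Lyve1 on the log2 scale), where 3217 of all 16751 genes tested rose.

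**Figure D2:**
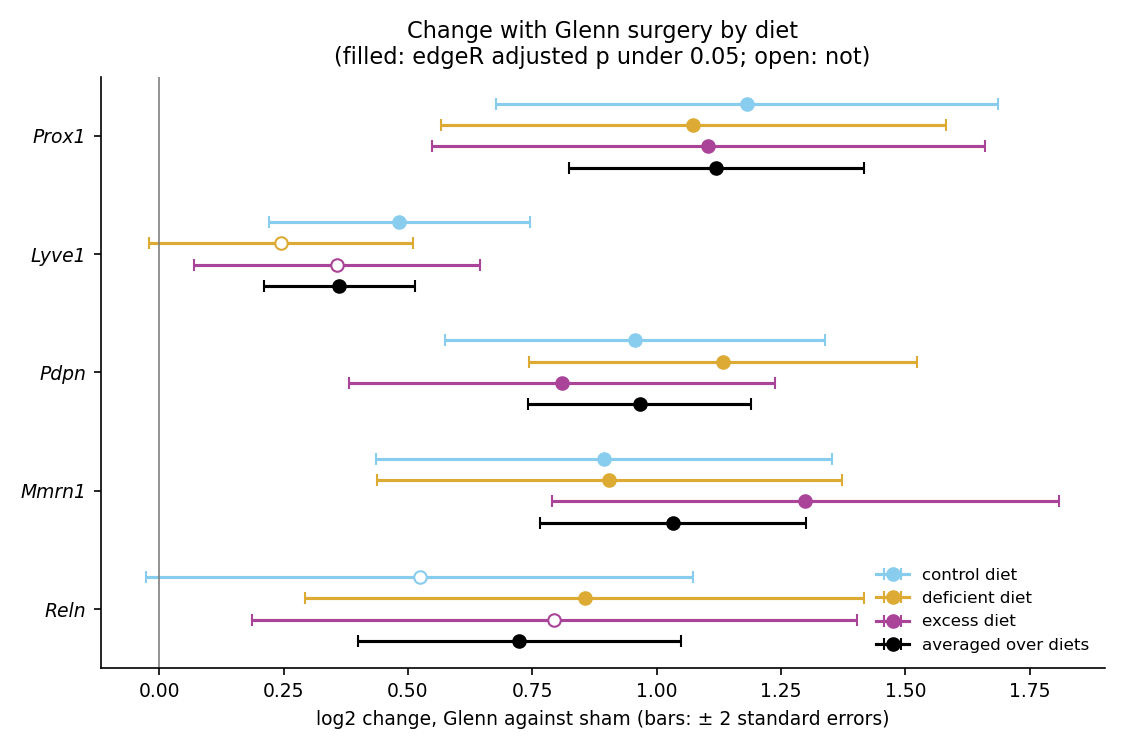
Log2 change between Glenn and sham surgery (x axis) of each lymphatic gene on each diet and averaged over diets, with bars of 2 standard errors either way. Filled points are called at an edgeR adjusted p under 0.05, and the open points are Lyve1 on the deficient and excess diets and Reln on the control and excess diets.

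Vitamin A content of the diet did not shift the lymphatic genes detectably. Over 6 diet comparisons (3 pairs of diets after each operation) the edgeR test called 0 of 30, with 3 at an unadjusted p under 0.05, and limma voom and DESeq2 also called 0. Few genes of the whole table changed either: 0.00% for deficient against control after sham and 0.00618% after Glenn surgery, 0.241% and 1.47% for excess against control, and 0.0124% and 0.00% for excess against deficient. The 3 smallest unadjusted p-values were all Pdpn, which was lower on the excess diet: by -0.42 on the log2 scale against control after sham (edgeR adjusted p 0.422), by -0.56 against control after Glenn (p 0.207) and by -0.42 against deficient after Glenn surgery (p 0.95). For Prox1, Lyve1, Mmrn1 and Reln the 24 changes between diets lay between -0.31 and 0.24 on the log2 scale. These groups of 5 leave wide margins: for Prox1, excess against control after Glenn surgery was 0.01, with an interval of 2 SE from -0.54 to 0.56. A difference between diets in the response to surgery was tested as an interaction. The edgeR test called 0 of 5 genes (0.00618% of all genes), with 0 at an unadjusted p under 0.05 and 0 by limma voom or DESeq2, and all 5 adjusted p-values were 0.999.

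The 5 genes did not rise in proportion. Ratios between them were compared with a two-sided permutation test that shuffled operations within diets (100000 permutations, 11 ratios, Benjamini-Hochberg adjustment), a set of tests chosen after the values were seen. The shuffles took no account of the library series or the replicate number, and on the excess diet the series B libraries, 3 in number, were all Glenn libraries. Prox1 relative to Lyve1 was higher after Glenn surgery by 0.81 on the log2 scale, in 15 of 15 Glenn libraries against the sham mean (permutation p 3e-05, adjusted 0.00016). Lyve1 was lower after Glenn surgery by -0.71 relative to Mmrn1 (adjusted permutation p 0.00033) and by -0.68 relative to Pdpn (adjusted permutation p 0.0022). On the control, deficient and excess diets the differences were -0.41, -0.61 and -1.09 for Mmrn1 and -0.41, -0.72 and -0.91 for Pdpn. Relative to Reln, Lyve1 was lower by -0.46 (adjusted permutation p 0.047), though the difference was -0.002 on the control diet. Mmrn1 relative to Reln was higher by 0.24 (adjusted permutation p 0.047). For the other 5 pairs, all between Prox1, Pdpn, Mmrn1 and Reln, the difference lay between -0.02 and 0.35, with adjusted permutation p-values of 0.11 to 0.88. The 11th ratio set Pdpn against the summed type 1 alveolar genes, a sum that weighs abundant genes most. Hopx, which fell, and Lmo7, which did not pass the test, made up 239 and 230 CPM of it on average with sham, beside 361 CPM for Ager. The ratio was higher after Glenn surgery by 0.48 on the log2 scale, in 15 of 15 Glenn libraries (permutation p 1e-05, the smallest that these permutations can give, adjusted 0.00011), and by 0.41, 0.44 and 0.57 on the control, deficient and excess diets.

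Within groups the lymphatic genes did not vary as one set. After the group means were subtracted, 15 relations across the 30 libraries (10 pairs of the genes, and each gene with the type 1 alveolar sum) were examined on the scale log2(CPM + 1). Mmrn1 and Reln, both secreted proteins, rose and fell together: Pearson's r was 0.795 and Spearman's rho 0.755 (permutation p 2e-05 and 5e-05, adjusted 0.00015 and 0.00037). It was 0.788 without the 2 libraries farthest from the median of Mmrn1, 0.872 in the 22 series A libraries and 0.86 in the 8 series B libraries. Pdpn instead followed the type 1 alveolar genes, with r 0.905 and rho 0.887 (permutation p 1e-05 for both, the smallest these permutations can give, adjusted 0.00015). That relation was 0.851 without the 2 farthest libraries, 0.929 in series A and 0.778 in series B. Prox1 showed r 0.49 with Mmrn1 (permutation p 0.015, adjusted 0.076; rho 0.388), and r 0.262 with Lyve1 and 0.096 with Pdpn. The permutations took no account of the library series or the replicate number, and none of the other 13 relations passed after adjustment. Lyve1 with Mmrn1 was 0.246 over all 30 libraries but -0.268 in series A and 0.642 in series B.

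**Figure D3:**
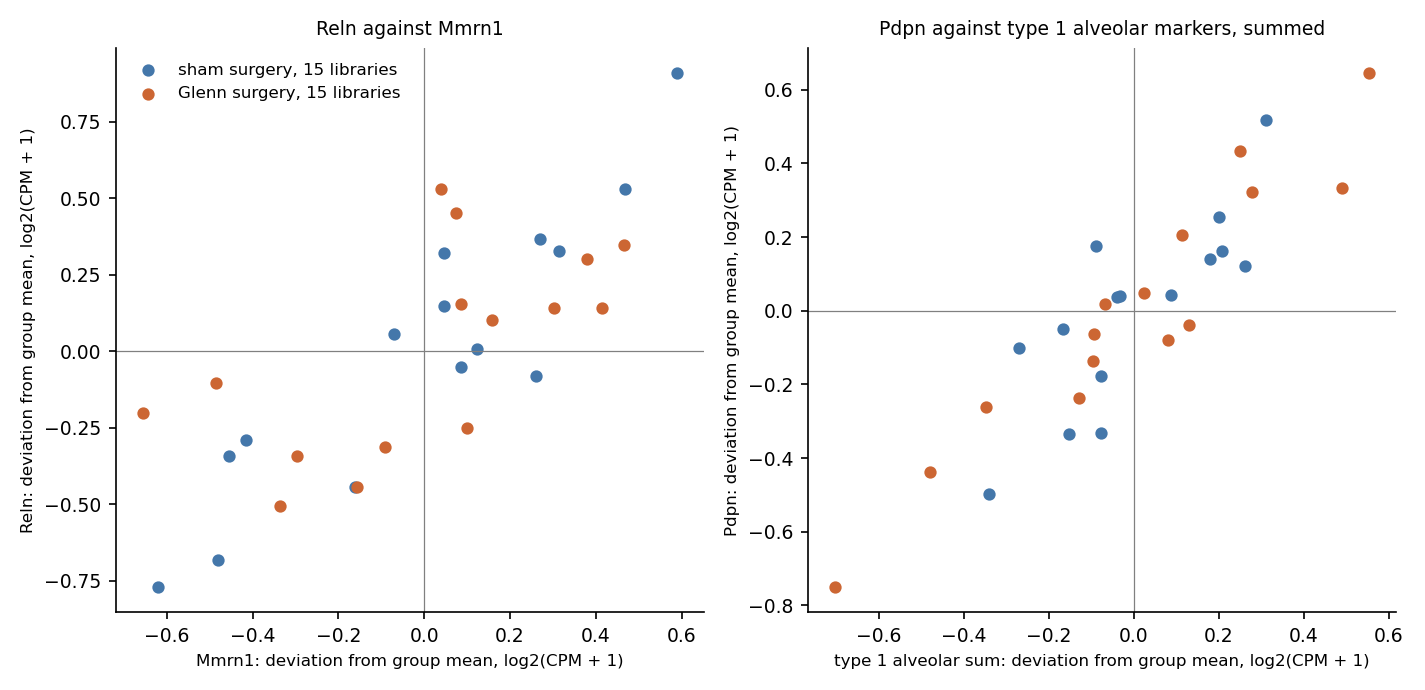
Deviation of each library from the mean of its group, on the scale log2(CPM + 1), for Reln against Mmrn1 (left) and Pdpn against the summed type 1 alveolar markers (right), with sham libraries in blue and Glenn libraries in orange. Both clouds run from lower left to upper right, with Pearson's r of 0.795 and 0.905 over the 30 libraries.

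The genes whose pattern was most like each lymphatic gene were taken, among 12716 named genes averaging 1 CPM or more, by Pearson's r of the same deviations over 30 libraries, as a description. For Pdpn they were Akap5, a type 1 alveolar marker (0.912), Ndnf (0.909) and Arhgef26 (0.898). For Reln the nearest was Mmrn1 itself (0.795), then the kinase gene Aak1 (0.794) and Dennd4a (0.742). For Mmrn1 they were the histone demethylase gene Kdm6a (0.824), the prolyl hydroxylase gene Egln3 (0.820) and Slc45a3 (0.804). For Prox1 they were Ppp1r10 (0.714), Hexim1 (0.694) and the NF-κB subunit gene Rel (0.686), and for Lyve1 Sipa1 (0.778), Wrap53 (0.770) and Flywch1 (0.754). Of the 5 genes, Reln alone had another of the 5 among its 3 nearest.

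Other genes of lymphatic development and function were counted on a list of 26, of which 24 could be tested (Nts and Stab2 could not). Averaged over diets 13 rose, 6 fell and 5 did not pass the edgeR test, with a median log2 change of 0.42. Among all genes tested 23.4% rose and 24.7% fell, with a median of -0.01. By diet, 9 rose and 6 fell on control (11.8% and 13.1% of all genes), 11 and 4 on deficient (13.7% and 13.7%), and 10 and 4 on excess (11.6% and 10.4%).

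Of the receptors, 4 of 4 rose averaged over diets and on each diet. Flt4, encoding VEGFR3, went from 77.0 ± 14.9 CPM with sham to 154 ± 18.9 CPM with Glenn surgery (SD over 15 libraries each; log2 change 1.00, SE 0.07, edgeR adjusted p 2.95e-12), and its lowest Glenn library (121 CPM) was above its highest sham library (105 CPM). Of all genes, 3.10% were fully apart in this way over 15 against 15 libraries. The VEGFR3 co-receptor gene Nrp2 rose by 0.62, the integrin gene Itga9 by 0.65 and the chemokine scavenger gene Ackr2 by 1.45 on the log2 scale. Among ligands and their processing, Vegfd rose by 1.23 and Ccbe1, which helps activate VEGF-C, by 0.72, while Vegfc itself fell by 0.22 (edgeR adjusted p 0.027). Vegfd was scarce, at 0.89 ± 0.52 CPM with sham and 2.18 ± 1.67 CPM with Glenn surgery (SD over 15 libraries each). By diet Vegfd was called on deficient (edgeR adjusted p 0.0327) but not on control (p 0.319) or excess (p 0.117). Ccbe1 was called on no single diet (edgeR adjusted p 0.0706 to 0.238). The Vegfc change was -0.66 on the control diet (edgeR adjusted p 0.000569), -0.17 on the deficient diet (p 0.395) and 0.19 on the excess diet (p 0.43). A difference between diets in this change was not called (interaction, edgeR adjusted p 0.396).

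Transcription factors split. Tbx1 (0.83), the valve factor gene Foxc2 (0.68) and Nr2f2 (0.43), upstream of Prox1, rose. Sox18, also upstream of Prox1, fell from 233 ± 35.8 to 145 ± 27.9 CPM (SD over 15 libraries each; log2 change -0.68, edgeR adjusted p 6.15e-07) and Gata2 from 526 ± 48.9 to 263 ± 56.2 CPM (-0.98, edgeR adjusted p 1.5e-12). Blood endothelium also uses genes of this list, and its part in these changes was not tested. Nfatc1 and Hhex did not pass the test. Of 5 genes of valves and cell polarity 1 rose (Celsr1), 2 fell (Vangl2 by 1.31 and the connexin gene Gja4 by 0.54 on the log2 scale) and 2 did not pass (Fat4 and Piezo1).

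The chemokine gene Ccl21, by which lymphatic vessels draw in dendritic cells, rose from 719 ± 152 to 1938 ± 552 CPM (SD over 15 libraries each; log2 change 1.46, SE 0.12, edgeR adjusted p 4.75e-11), and all 15 Glenn libraries (from 1172 CPM) lay above all 15 sham libraries (up to 1068 CPM). Such full separation held for 3.10% of all genes. Klhl4 rose by 2.05 and the tight junction gene Cldn11 by 1.22, and Fxyd6 fell by 0.65 on the log2 scale. Among binding partners and relatives of the 5 genes, 7 were listed and 6 tested. Emilin1, of the same protein family as Mmrn1, rose from 28.0 ± 5.04 to 79.3 ± 17.7 CPM (SD over 15 libraries each; log2 change 1.52, edgeR adjusted p 2.35e-13). Cd44, the other main hyaluronan receptor beside LYVE1, fell by 0.42. The reelin receptor genes Vldlr and Lrp8, the podoplanin receptor gene Clec1b and Mmrn2 did not pass the averaged test, with changes of 0.09, -0.02, 0.21 and -0.08. Within diets Vldlr fell by 0.44 on control (edgeR adjusted p 0.0153) and rose by 0.42 on deficient (p 0.0236), and its change on excess was 0.30 (p 0.161). The interaction test of a difference between diets did not call Vldlr (edgeR adjusted p 0.245, unadjusted 0.00017).

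**Figure D4:**
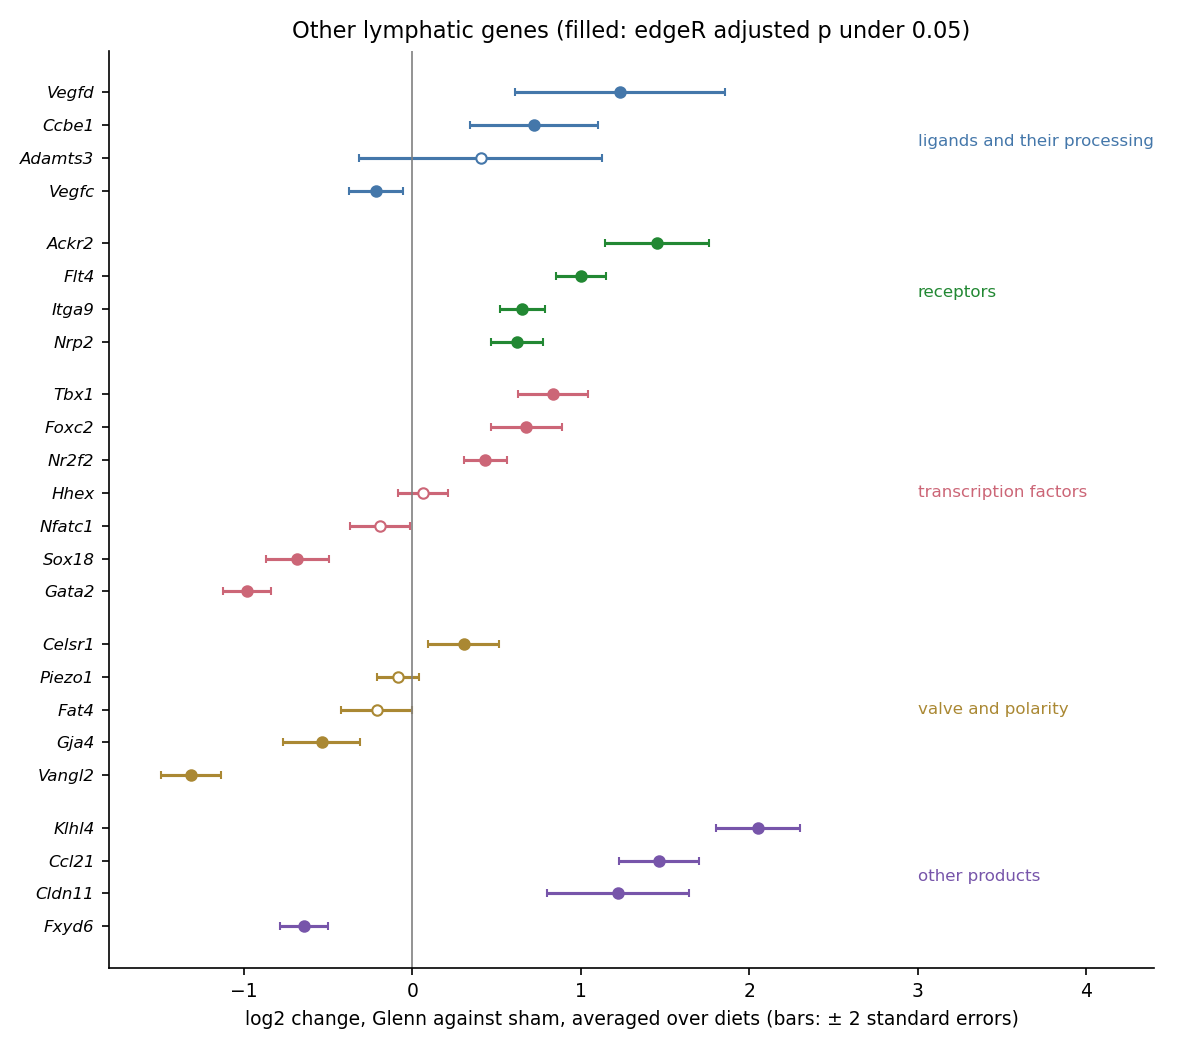
Log2 change between Glenn and sham surgery, averaged over diets (x axis), for the 24 other lymphatic genes tested, grouped by role, with bars of 2 standard errors either way and filled points where the edgeR adjusted p was under 0.05. The 4 receptor genes all lie to the right of 0, and transcription factors and valve genes lie on both sides.

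Markers of cells other than endothelium also moved with the operation. Of mural cell genes 5 of 5 rose (median log2 change 1.56), with a sum of 116 to 225 CPM with sham and 300 to 1145 CPM with Glenn surgery. Of fibroblast genes 5 of 6 rose (median 0.72), summing to 1045 to 2763 CPM with sham and 1474 to 3974 CPM with Glenn surgery. All 6 type 2 alveolar genes fell (median -0.41), and of the 6 endothelial genes 2 rose and 3 fell (median -0.21). Among all genes tested, 23.4% rose and 24.7% fell. Within the control diet 0 of 6 type 2 alveolar genes (median -0.15) and 0 of 6 fibroblast genes (0.23) passed the test and 3 of 5 mural genes rose. On the deficient diet 6 type 2 genes fell and 3 fibroblast and 5 mural genes rose, and on the excess diet 2 fell and 1 and 5 rose. Of all genes, 11.8% rose and 13.1% fell on control, 13.7% and 13.7% on deficient, and 11.6% and 10.4% on excess. What part any of these cells had in the changes of the lymphatic genes was not tested.

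**Figure D5:**
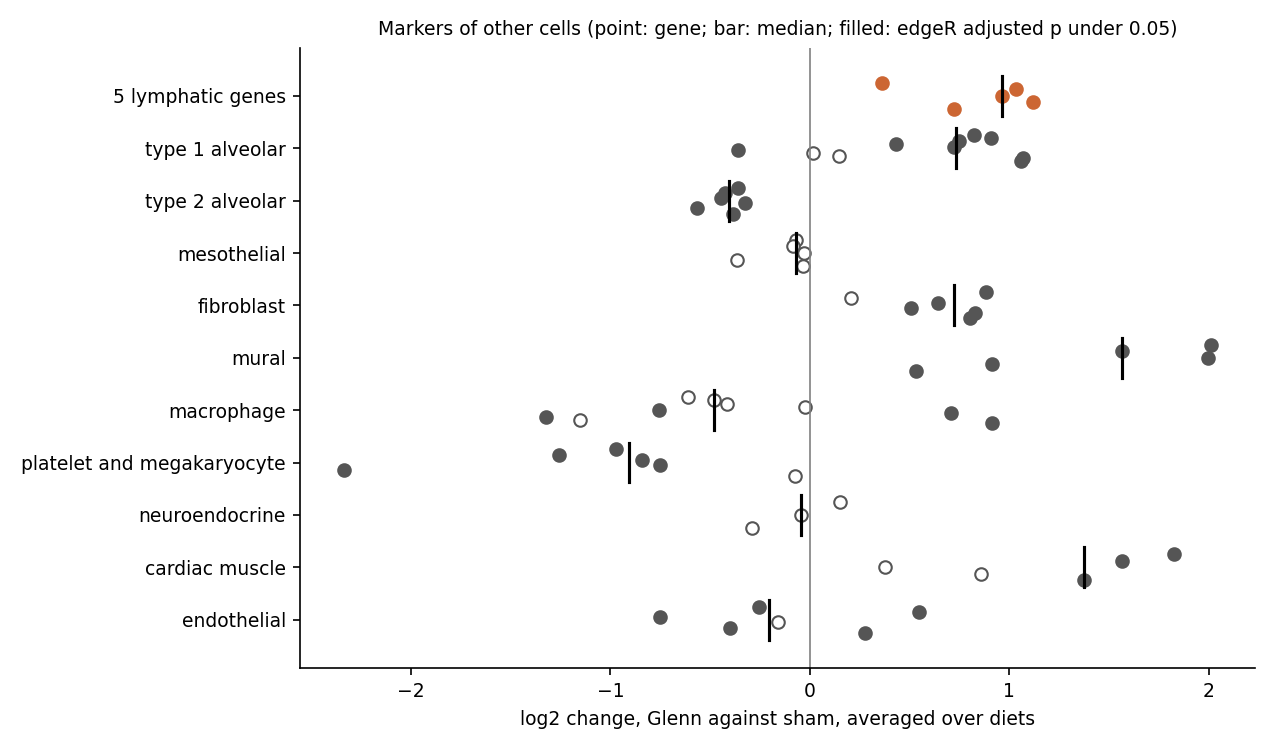
Log2 change between Glenn and sham surgery, averaged over diets (x axis), of the 5 lymphatic genes (orange) and of marker genes of other cells (grey), each point a gene and each bar the median of its list. Type 1 alveolar, fibroblast and mural markers lie mostly to the right of 0, and type 2 alveolar and platelet markers to the left.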

How the data were processed

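RNA of 30 libraries was taken with the PureLink kit and amplified with SMART-Seq v4, a low-input kit, per the labels' protocols. The authors deposited one table of estimated counts per gene. The submitters' processing notes name FastQC, Trim Galore, Picard, STAR and Salmon and the build mRatBN7.2 (rn7). Their versions, the annotation release and strandedness are not given in the sources used here. Salmon shares out reads that fit several transcripts, and 13.6% of the deposited estimated counts were not exactly whole numbers (no tolerance). All 30 sample columns were used.

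Estimated counts were rounded. In edgeR 4.0.16, filterByExpr at its defaults (10 for the minimum count and 15 for the minimum total) left 16171 genes, TMM factors lay between 0.938 and 1.062, and all libraries entered one quasi-likelihood fit (glmQLFit, robust, legacy method) whose terms were the 6 groups and the library series. P-values of glmQLFTest were adjusted over all genes tested by Benjamini-Hochberg. An adjusted p under 0.05 is a call, and a standard error is the size of the log2 change over the root of F. Ratios and correlations were tested with 100000 permutations, two-sided, which took no account of the library series or the replicate number. Alternatives were DESeq2 1.42.0 and its size factors, limma 3.58.1 voom with quality weights, no filter, no series term, the level of RT1-CE16 (high above 100 CPM) with or without sex (male above 10 CPM of Ddx3y) in place of the series, the newer edgeR dispersion method, subsets of libraries, the replicate number as a block and leaving out each library. The subsets of series B alone and of each RT1-CE16 level alone, the ratios and the correlations were chosen after values were seen. The steps were tested on simulated data.

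The 5 genes, the gene lists and the tests were chosen with earlier results of these data known. The text names the 5 genes in every library, listed lymphatic and partner genes with their averaged change, defining genes of marker lists, and for each of the 5 genes the 3 most like it. A pair of genes of the lymphatic lists is not reported here. Promoter sequences are RefSeq's for GRCr8, a later build than that of the counts, matched by symbol. R 4.3.3 and matplotlib 3.10.9 were used.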

Additional observations from a re-analysis of the deposited data

Results flagged for a closer look

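Among 30 sets of 5 libraries (5 lymphatic genes in 6 groups), 1 held a library far from the others, where chance gives about 1.5. Pdpn in sham deficient replicate 1 stood at 55.6 CPM and in the other 4 sham deficient libraries at 81.0 to 89.2 CPM, a gap of 0.754 of the whole range. Without that library the Pdpn change on the deficient diet remained called.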

How the results depend on the processing

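Averaged over diets, 5 of 5 lymphatic genes were called under every alternative that could be fitted, and leaving out any 1 library gave 5 to 5. Leaving out 1 library gave 4 to 4 calls on the control diet, 3 to 5 on the deficient diet, 3 to 4 on the excess diet and 0 to 0 for the diet comparisons and the interaction. On the control diet, 2 of 5 were called among RT1-CE16-low libraries and 1 of 5 among RT1-CE16-high ones. On the deficient diet, 2 were called in series A alone, 1 in series B alone, 2 in the RT1-CE16-low and 1 in the RT1-CE16-high subset, all with fewer samples. On the excess diet, in place of 3, 5 were called by limma voom and 4 by DESeq2, without the series term, with the RT1-CE16 level (with or without sex) in its place and with only the groups compared, and the cause was not tested. Of the log2 changes with surgery, 592 of those with 1 library left out stayed on the same side of the threshold, 4 crossed it upward and 4 downward, and under other settings 223 stayed, 9 crossed upward and 18 downward, with 0 reversed. The difference in Pdpn between excess and deficient diets after sham surgery, -0.10, turned to 0.07 without sham deficient replicate 2, the upper end of a range from -0.25. The labels do not say what a replicate number shares, and the numbers were not taken as pairs in the main fit or in the permutations. The count of same-numbered pairs of libraries with a correlation of deviations over 0.1 was 38 of 75 (range -0.246 to 0.292, median 0.104). Among pairs with different numbers in different groups it was 52 of 300 (median -0.024), and 15 of 30 libraries correlated best with one of their own number, a hint from the data and not from the design. With the replicate number as a block, 5, 4, 4 and 3 of the 5 genes were called averaged and on the control, deficient and excess diets, while over all genes the calls for excess against control diet went from 237 to 34 after Glenn and from 39 to 111 after sham surgery. DESeq2 size factors moved the median of all genes from -0.013 to -0.001. Over all genes tested, the calls on the control diet went from 4023 to 1563 and 2497 in the RT1-CE16-low and RT1-CE16-high subsets. On the deficient diet they went from 4423 to between 1969 and 2553 in the 4 subsets, and on the excess diet from 3549 to 2270 in series A alone, 2152 in the RT1-CE16-low subset and 1960 with only the groups compared. The excess-diet calls were 4150 with limma voom, 3958 with DESeq2 and 4370 without the series term. With the RT1-CE16 level in its place they were 4063, and 4105 with sex added. For excess against control diet they went from 237 to between 10 and 531 after Glenn surgery (2 to 557 with 1 library left out) and from 39 to between 0 and 210 after sham surgery (0 to 79). The other diet comparisons and the interaction, with 0 to 2 genes called, reached at most 63 (DESeq2). Series B alone and RT1-CE16-high libraries alone could not be fitted for surgery on the excess diet, the average over diets or the interaction. The lowest count of the 5 genes was 78, so counting error was small beside the spread between libraries, and groups of 5 limit what could be called.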
